A study of Mus musculus with 6 samples.

Results

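The collagen genes of the mouse were followed in single nuclei of the hippocampus. All genes whose symbol consists of Col, a number, the letter a and a number were taken, which gave 44 of the 26049 genes in the deposited count matrix. All 44 were detected, from 109 unique molecular identifiers (UMIs, each counting 1 captured RNA molecule) for Col6a4 to 21849 for Col25a1, and together they gave 82133 UMIs in 28650 nuclei. The nuclei came from male PS19 mice, a line that carries a human tau transgene with the P301S mutation under the prion protein promoter and is used as a model of tau pathology. One arm was sham operated and the other received a mild traumatic brain injury (TBI) by controlled cortical impact to the right side. An adeno-associated virus (AAV) delivered green fluorescent protein (GFP), the control, or VEGFC, which acts on lymphatic endothelium. Each combination is 1 library: after sham, right hippocampus with GFP and with VEGFC, and after TBI, right and left hippocampus with each vector, 6 in all. All groups share the transgene and a vector, and no library came from untreated or non-transgenic mice. The labels give neither the age of the mice, nor how many entered a library, nor whether both sides were taken from the same animals, so p-values measure the spread between these libraries only.

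Collagens are built from chains that wind around each other in threes, and the chains of one type often come from different genes that must be made in the same cell. Fibrillar collagens form the cables of connective tissue, type IV collagens form the sheet of basement membranes under vessels and epithelia, and FACIT collagens bind to the surface of fibrils. Other members stay anchored in the cell membrane, form beaded filaments, or carry the endostatin-type end of the multiplexins. In brain, most fibrillar collagen is known from the meninges, vessel walls and the stroma of the choroid plexus, while some neurons make transmembrane and FACIT collagens.

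The libraries held 3676 to 6002 nuclei and 15358208 to 18379148 UMIs, and 91 barcodes occurred in more than 1 library. UMIs were added up within each of the authors' 9 cell classes and 32 clusters in each library and are given as CPM, the count scaled to a total of 1000000 UMIs in that class or cluster. These are levels per cell type and not per tissue. Counting is from the 3′ end and nuclear RNA holds unspliced transcripts, so levels are compared between cell types for 1 gene and not between genes. Fibroblasts, with 27 to 102 nuclei per library, and microglia, with 40 to 138, have the least precise values. The fibroblast class carried the markers of its label: 10 fibroblast markers summed to a median of 3089 CPM (range 2880 to 3825 over the libraries), with all 10 detected, against 1373 CPM (1234 to 1533) in OPC (oligodendrocyte precursor cells), the next class, and 297 CPM in choroid plexus epithelium. Slc6a13 was at 0 in OPC. Mural markers summed to 1055 CPM (927 to 1307) in fibroblasts, the highest of the 9 classes, with 8 of 10 detected and Kcnj8 and Myh11 at 0, and OPC followed at 238 CPM. Endothelial markers summed to 309.9 CPM (193 to 385) in fibroblasts, second to choroid plexus at 1071 CPM, with 7 of 10 detected and Mecom, Ptprb and Erg at 0. Most of the fibroblast sum came from Flt1 (153 CPM) and Slco1a4 (138 CPM), while Cldn5 had 2 UMIs and Pecam1 5. Most of the choroid plexus sum came from Mecom (680 CPM) and Slco1a4 (355 CPM). The choroid plexus list summed to a median of 20791 CPM in fibroblasts, nearly all of it from Trpm3 with 12026 UMIs, while the epithelial gene Ttr had 659 CPM there and 9684 CPM in choroid plexus epithelium and Prlr was at 0. Astrocyte markers summed to 1821 CPM (1357 to 2443) in fibroblasts and to 9398 CPM in astrocytes. The part of mural, endothelial, OPC, epithelial and astrocyte RNA in the fibroblast values was not tested. No vascular class is among the 9.

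The cell classes split the family between them. Fibroblasts had the highest median level for 20 of the 44 genes, and 12 of these were above every other class in all 6 libraries. Choroid plexus epithelium led for 9 genes, 5 of them in all libraries, OPC for 5, inhibitory neurons for 3, microglia, mixed neurons and oligodendrocytes for 2 each, and astrocytes for 1. By family, fibroblasts led for 5 of 11 fibrillar genes, 4 of 6 type IV genes, 4 of 6 beaded-filament genes and 3 of 9 FACIT genes. No beaded-filament gene lay above every other class in all libraries, and fibroblasts had 12 UMIs of Col6a2, 19 of Col6a6, 21 of Col6a1 and 31 of Col6a3. Col6a3 had 51.6 CPM there and 41.7 CPM in inhibitory neurons, which held 87.2% of its UMIs. All 3 genes of the other network-forming type, Col8a1, Col8a2 and Col10a1, were highest in choroid plexus, Col10a1 at only 6.42 CPM (0 to 14.6). Since classes were made by the authors from the same counts, these levels are a description, with no test.

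**Figure D1:**
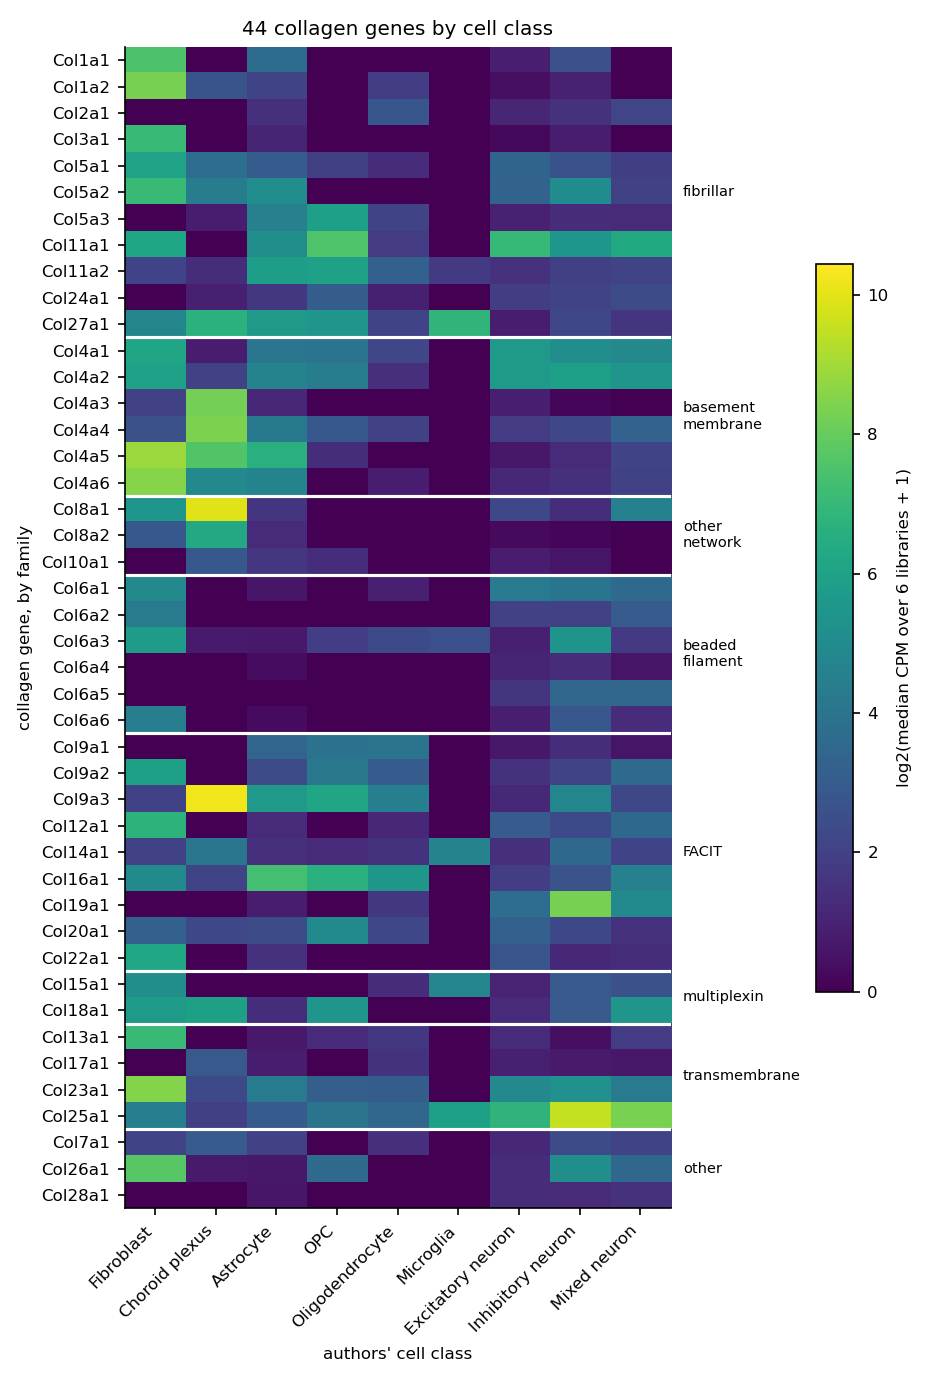
Level of each of the 44 collagen genes (rows, grouped by family) in the 9 cell classes (columns), as log2 of the median CPM over 6 libraries plus 1. The fibroblast column is bright over part of the fibrillar, type IV and transmembrane genes, among them Col1a2, Col4a5 and Col23a1. The rows of Col9a3 and Col8a1 are brightest in choroid plexus, and those of Col25a1 and Col19a1 in inhibitory neurons.

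In fibroblasts the genes of interstitial fibrils and of basement membranes were both found. Col1a2, a chain of the type I collagen of fibrils, had a median of 319 CPM (range 223 to 445 over the libraries), and the second highest class, choroid plexus, had 5.64 CPM. Its partner Col1a1 had 184 CPM (118 to 240) and Col3a1, the chain of reticular fibrils, 132 CPM (64.3 to 159). Every fibroblast library lay above every library of the other classes for these 3 genes. UMIs of Col1a2 were seen in 33.7% of fibroblast nuclei and in 0.354% of oligodendrocyte nuclei, at median depths of 1360 and 1307 UMIs per nucleus. Thinned to 1000 UMIs per nucleus, the shares were 26.0% and 0.230%.

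The type IV chains 5 and 6 of basement membranes were both highest in fibroblasts. Col4a5 had a median of 467 CPM (372 to 686) and Col4a6 375 CPM (273 to 451), against 197 and 29.2 CPM in choroid plexus, the second highest class for both. The pair of Col4a1 and Col4a2, which forms the common basement membrane sheet, did not stand apart in fibroblasts: Col4a1 ranged from 30.4 to 171 CPM there and from 42.0 to 51.9 CPM in excitatory neurons. The transmembrane collagen Col23a1 had 367 CPM (253 to 900), with 38.5 CPM in inhibitory neurons, the next class, and Col26a1, a collagen with an EMI domain, 211 CPM (109 to 260). Col13a1, another transmembrane collagen, had 136 CPM (88.8 to 219) and Col12a1, a FACIT collagen that binds fibrils, 108 CPM (70.9 to 284). The 44 genes together made up a median of 3252 CPM of fibroblast RNA (2866 to 4393).

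Within the fibroblast class, 282 of 412 nuclei were assigned to the fibroblast marker set, 23 to the mural set, 4 to the endothelial set and 103 to no set. A nucleus was put in a set when it had UMIs of at least 2 markers of that list and more UMIs of it than of either other list. Collagen UMIs made up 3295 CPM in the fibroblast set, 4361 CPM in the mural set and 3059 CPM in the nuclei of no set. Col4a5 had 449 CPM in the fibroblast set (exact Poisson 95% interval 388 to 519) and 648 CPM in the mural set (406 to 981), and Col1a2 had 299 CPM (249 to 356) and 619 CPM (383 to 946). Of the mural markers, Vtn had 390 UMIs in the class, Pdgfrb 207 and Notch3 37, and no other mural marker had more than 9. The intervals cover counting error only.

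Choroid plexus epithelium, which makes cerebrospinal fluid, had a collagen set of its own. Col9a3, a chain of the FACIT collagen of type IX, had a median of 1210 CPM (1007 to 1347), and the next class, OPC, had 69.8 CPM. Col8a1, a short-chain network collagen known from endothelial and corneal basement membranes, had 976 CPM (911 to 1078) against 44.3 CPM in fibroblasts. Choroid plexus held 75.0% of all Col9a3 UMIs and 88.7% of all Col8a1 UMIs of the series. UMIs of Col9a3 were present in 91.2% of choroid plexus nuclei and in 3.18% of oligodendrocyte nuclei, and thinned to 1000 UMIs in 68.9% and 2.35%. For Col8a1 the shares were 77.7% and 0.0442%, and thinned 54.4% and 0.0389%. Col8a2, the partner of Col8a1, had 79.0 CPM (53.4 to 91.7). The other chains of type IX collagen did not follow Col9a3: Col9a2 was highest in fibroblasts at 60.6 CPM, and Col9a1 in oligodendrocytes at 15.1 CPM. Col9a3 overlaps Tcfl5 on the other strand, and the sources used here do not say how strand was treated.

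**Figure D2:**
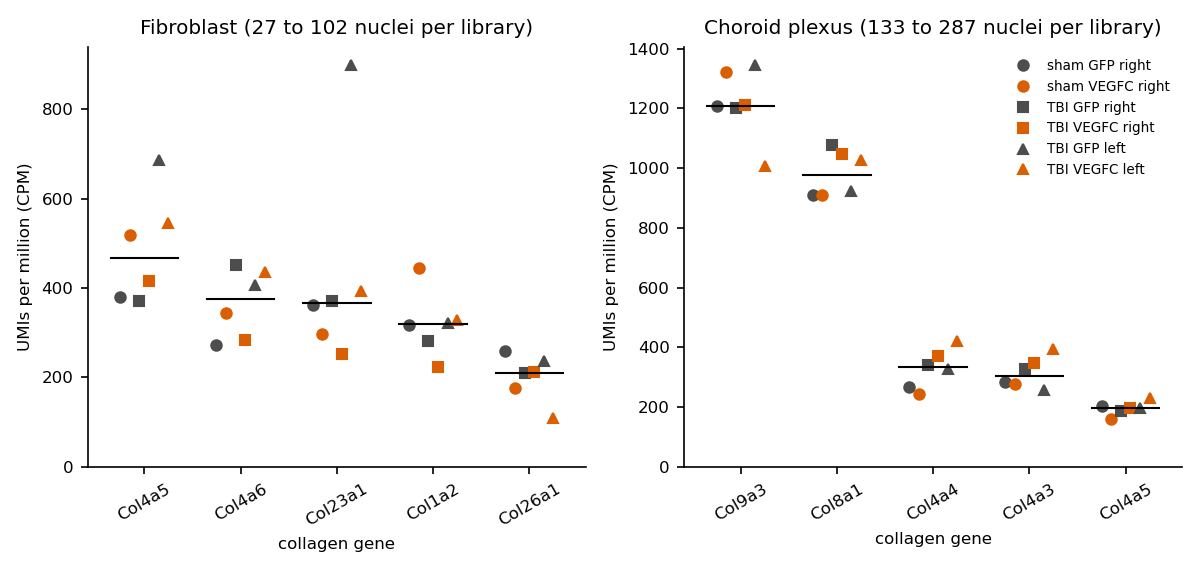
CPM of the 5 collagen genes with the highest median in fibroblasts (left) and in choroid plexus epithelium (right), 1 point per library, with the median as a line. Grey is GFP and orange VEGFC; circles are sham right, squares TBI right and triangles TBI left. Col23a1 in fibroblasts has a single high library, TBI GFP left at 900 CPM, and Col4a4 in choroid plexus is lowest in both sham libraries.

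Choroid plexus also held the type IV chains 3 and 4, which are known from the specialised basement membranes of kidney, lung, inner ear and choroid plexus. Col4a3 had 305 CPM (257 to 393), with 92.3% of all its UMIs in this class, and Col4a4 had 334 CPM (243 to 421). The next classes were at 3.17 CPM for Col4a3, in fibroblasts, and at 17.5 CPM for Col4a4, in astrocytes. Col4a5, the third chain of that network, had 197 CPM (159 to 229) in choroid plexus. Col4a1 and Col4a2 were at 0.786 and 3.12 CPM in choroid plexus, and fibroblasts had 3 UMIs of Col4a3.

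The 6 type IV genes lie in 3 head-to-head pairs, in the GRCm38 annotation Col4a1 and Col4a2 on chromosome 8, Col4a3 and Col4a4 on chromosome 1, and Col4a5 and Col4a6 on the X chromosome. The annotated starts are 21, 72 and 1309 bases apart, and the first pair overlaps by 22 bases. For these genes the windows around the starts are shown, from 250 bases before to 50 bases after the start, from RefSeq (GRCm38.p6), on the strand of the gene. Capitals mark the box CCAAT, the box GGGCGG and, had it been found, the box TATAAA, each on either strand. The windows are chr8:11312777-11313076 (minus strand), chr8:11312555-11312854 (plus), chr1:82586800-82587099 (minus), chrX:141475169-141475468 (plus) and chrX:141474027-141474326 (minus), in the order of the lines.
Col4a1: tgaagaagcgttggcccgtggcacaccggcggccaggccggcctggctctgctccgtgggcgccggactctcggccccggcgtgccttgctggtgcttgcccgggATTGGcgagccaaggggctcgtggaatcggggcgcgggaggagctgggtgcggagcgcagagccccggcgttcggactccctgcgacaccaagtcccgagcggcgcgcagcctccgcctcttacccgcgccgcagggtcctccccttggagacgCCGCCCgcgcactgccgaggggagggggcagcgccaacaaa
Col4a2: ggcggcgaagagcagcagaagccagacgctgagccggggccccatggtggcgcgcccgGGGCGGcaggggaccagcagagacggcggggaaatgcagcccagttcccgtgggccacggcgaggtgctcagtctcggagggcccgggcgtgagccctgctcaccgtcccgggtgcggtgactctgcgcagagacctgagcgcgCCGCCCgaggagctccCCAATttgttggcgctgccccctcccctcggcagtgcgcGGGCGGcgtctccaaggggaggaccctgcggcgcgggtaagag
Col4a4: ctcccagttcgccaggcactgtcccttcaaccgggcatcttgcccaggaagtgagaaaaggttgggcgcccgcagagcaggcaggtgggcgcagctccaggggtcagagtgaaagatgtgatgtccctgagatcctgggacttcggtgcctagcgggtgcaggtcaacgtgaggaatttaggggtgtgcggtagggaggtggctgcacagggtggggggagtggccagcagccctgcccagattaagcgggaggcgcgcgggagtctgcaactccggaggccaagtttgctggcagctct
Col4a5: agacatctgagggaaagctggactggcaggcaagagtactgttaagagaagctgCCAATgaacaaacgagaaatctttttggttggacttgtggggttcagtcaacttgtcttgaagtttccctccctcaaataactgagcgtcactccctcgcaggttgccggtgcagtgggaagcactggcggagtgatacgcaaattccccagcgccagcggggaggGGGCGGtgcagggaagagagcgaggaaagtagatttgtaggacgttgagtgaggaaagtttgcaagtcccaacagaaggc
Col4a6: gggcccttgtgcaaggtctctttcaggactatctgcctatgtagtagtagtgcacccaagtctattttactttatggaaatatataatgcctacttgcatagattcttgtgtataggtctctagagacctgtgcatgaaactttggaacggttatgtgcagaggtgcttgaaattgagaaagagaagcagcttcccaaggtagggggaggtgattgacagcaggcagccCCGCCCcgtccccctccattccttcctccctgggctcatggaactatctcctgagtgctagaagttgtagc
The windows of Col4a1 and Col4a2 share 78 bases, and the window of Col4a4 runs over the start of Col4a3. CCAAT was found in the windows of Col4a1, Col4a2 and Col4a5, GGGCGG in 4 of the 5 windows but not in that of Col4a4, and TATAAA in none. Over all 32851 windows of the same length, 37.4% hold CCAAT, 35.7% GGGCGG and 13.6% TATAAA on either strand. Windows were found for 35 of the 44 collagen genes. In the first listed window of each gene, 12 hold CCAAT, 22 GGGCGG and 5 TATAAA. A further window of Col9a1, not counted here, also holds CCAAT. A match is a string of letters in the window and says nothing of a factor.

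Over the 32 clusters, the log2 levels of the paired genes correlated at r = 0.81 for Col4a1 and Col4a2, 0.80 for Col4a3 and Col4a4, and 0.90 for Col4a5 and Col4a6 (Spearman rho 0.89, 0.62 and 0.59). These are descriptions over clusters that share libraries, with no test. Without the fibroblast and choroid plexus clusters, r was 0.81, 0.57 and 0.84 over 30 clusters. Of the other 8 pairs of chains, Col1a1 and Col1a2 had r = 0.72, Col6a1 and Col6a2, which lie 85162 bases apart, 0.70, Col8a1 and Col8a2 0.67, and Col9a3 and Col9a1 0.50. Lower values were those of Col6a1 and Col6a3 (0.25), Col11a1 and Col11a2 (0.24), Col5a1 and Col5a2 (0.22) and Col9a3 and Col9a2 (0.15). Over the 30 clusters, r was 0.48 for Col1a1 and Col1a2, 0.68 for Col6a1 and Col6a2 and 0.06 for Col8a1 and Col8a2.

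**Figure D3:**
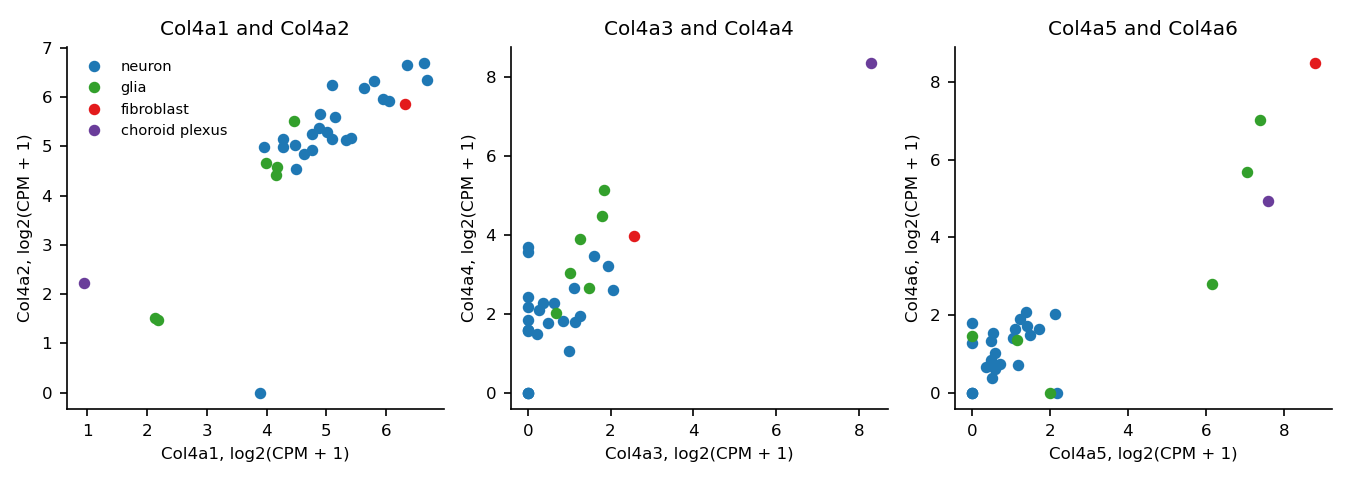
Level of the 2 partners of each type IV pair in 32 clusters, as log2 of CPM plus 1, coloured by neuron, glia, fibroblast or choroid plexus. Col4a1 and Col4a2 rise together through the neuron clusters, Col4a3 and Col4a4 are both highest in the choroid plexus point, and Col4a5 and Col4a6 are both highest in the fibroblast point.

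Glia had other leading members. In astrocytes, Col16a1, a FACIT collagen, had 158 CPM (99.7 to 185), and 69.6% of all its UMIs were in this class, with 97.2 CPM (45.2 to 112) in OPC and 44.8 CPM in oligodendrocytes. Col4a5 had 97.5 CPM (79.1 to 104) in astrocytes and Col11a2, a fibrillar chain known from cartilage, 56.9 CPM (47.4 to 66.0). Astrocyte cluster 2 held Col4a5 at 167 CPM and Col4a6 at 128 CPM, and astrocyte cluster 1 held them at 70.2 and 5.95 CPM. In OPC, Col11a1 had 190 CPM (148 to 248), which overlapped with excitatory neurons at 128 CPM (107 to 187). Col5a3, a fibrillar chain of type V, had 58.1 CPM (40.7 to 89.4) in OPC, above each other class in every library. Microglia had Col27a1 at 114 CPM (92.0 to 236), close to choroid plexus at 103 CPM (78.6 to 132). Microglia also had Col25a1 at 18.4 to 155 CPM on 37 UMIs, and 23 of the 44 genes had no UMI there. Over their 565995 UMIs, a count of 0 allows up to 3 UMIs, or 5.30 CPM.

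Neurons carried most UMIs of Col25a1, a transmembrane collagen whose shed part was found in amyloid plaques, and of Col19a1, a FACIT collagen known from interneurons. Inhibitory neurons had Col25a1 at 744 CPM (611 to 834) and Col19a1 at 319 CPM (233 to 409), and both lay above every other class in all libraries. Mixed neurons had 329 and 31.3 CPM. Excitatory neurons had Col25a1 at 110 CPM (89.0 to 125). Within the inhibitory class the levels differed by cluster. In cluster I6 Col25a1 reached 1665 CPM (libraries 1504 to 1791) with UMIs in 89.5% of nuclei, in I3 1198 CPM and 51.3%, in I2 839 CPM, in I1 392 CPM, and in I8 32.6 CPM. Thinned to 1000 UMIs, the shares in I6 and I3 were 67.6% and 36.1%. Oligodendrocyte nuclei had a Col25a1 UMI in 1.33% of cases, or 0.966% thinned.

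Col19a1 followed another order of clusters. It was highest in I3 at 882 CPM (778 to 1102), with UMIs in 48.6% of nuclei, then in I1 at 422 CPM (354 to 487) and I8 at 245 CPM (74.9 to 331), whereas I2 had 2.89 CPM. Cluster I2 held other members at their highest level of all neuron clusters: Col6a3, a chain of the type VI filaments, at 163 CPM (120 to 187), Col23a1 at 119 CPM, Col9a3 at 92.5 CPM, Col18a1 at 25.1 CPM, Col15a1 at 21.6 CPM and Col1a1 at 15.04 CPM. For Col6a3 the next neuron cluster, I7, had 22.9 CPM. The Col23a1 level of I2 did not stand apart from that of excitatory cluster E9, at 118 CPM. Col26a1 was highest in I1 at 50.2 CPM, with 45.5 CPM in I2, and Col5a2, a fibrillar chain, in I6 at 122 CPM (82.7 to 163), with 102 CPM in E9.

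Among excitatory clusters, Col11a1, a fibrillar chain of type XI collagen known from cartilage and inner ear, was split sharply. It reached 451 CPM (378 to 1010) in E11, 306 CPM (204 to 501) in E4 and 291 CPM (241 to 385) in E1, and was at 1.89 CPM in E2 and 2.20 CPM in E3. Cluster E11, with 280 nuclei, also held the highest neuronal levels of Col6a1 at 311 CPM (250 to 378), Col6a2 at 32.97 CPM and Col4a1 at 101 CPM. Col6a1 was seen in 74.3% of E11 nuclei, or 28.1% when thinned, and the next cluster, I7, had 162 CPM. Col5a1 was highest in E5 at 68.6 CPM (19.1 to 102), with 33.7 CPM in E14. Col25a1 ran the other way from Col11a1 in some clusters, at 347 CPM in E8, 199 CPM in E3 and 171 CPM in E2, and at 64.9 CPM in E1 and 29.9 CPM in E4. Col4a1 and Col4a2 were present in all broad neuron classes, with 48.6 and 50.6 CPM in excitatory neurons and 58.7 CPM for Col4a2 in inhibitory ones.

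**Figure D4:**
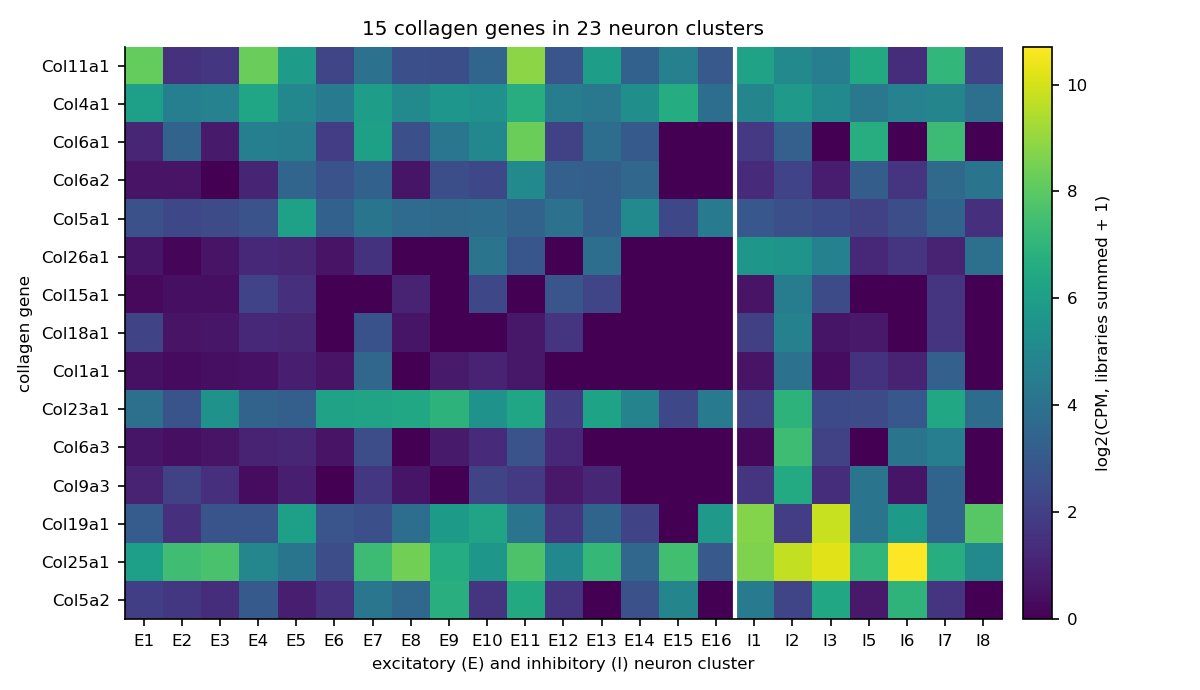
Level of the 15 collagen genes that have their highest neuronal level in a cluster with at least 50 UMIs, in 23 neuron clusters (E excitatory, I inhibitory), as log2 of CPM summed over libraries plus 1. Col11a1 is high in E1, E4 and E11, Col6a1 in E11, Col25a1 in I2, I3 and I6, and Col19a1 in I1, I3 and I8.

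Among the other genes of collagen biology, the class with the highest level varied by list. Of 12 proteoglycans and glycoproteins that bind collagen, 10 were highest in fibroblasts, among them Dcn (decorin, 348 CPM), Ogn (174 CPM) and Fbln1 (168 CPM). Of 15 basement membrane partners, 9 were highest there, including Lama1 (729 CPM), Lamc1 (348 CPM) and Nid1 (153 CPM), whereas Lama5 (104 CPM) and Lamb1 (165 CPM), laminin chains, were highest in choroid plexus. Dcn, Lum, Ogn and Fbln1 of the first list and Lamc3 of the second are also among the fibroblast markers used above. The counts of these lists therefore repeat that marker check in part. Of 20 genes for synthesis and secretion, 5 were highest in fibroblasts, such as the lysyl hydroxylase Plod2 at 85.5 CPM and the collagen chaperone Serpinh1 at 70.3 CPM, with 4 in astrocytes and 4 in microglia. Among 11 receptors, 4 were highest in fibroblasts, with the collagen-activated kinase Ddr2 at 293 CPM, and Lair1, an inhibitory collagen receptor of immune cells, was highest in microglia at 927 CPM. Of 14 genes of processing and crosslinking, Bmp1, Loxl3 and Pxdn were highest in astrocytes, 3 in choroid plexus and 2, Pcolce and Adamts2, in fibroblasts. The crosslinking gene Lox had a median of 0 CPM in every class. Fibroblasts led for 4 of 11 measured genes of degradation and its inhibitors, with Timp3 at 899.6 CPM.

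Next, the effects of vector and injury on the collagen genes were asked within each class. The edgeR quasi-likelihood test was run on the summed counts of all genes of a class with vector and context (sham right, TBI on either side) as additive terms, and Benjamini-Hochberg adjustment was made within each class and comparison. Of 44 members, 43 passed the filter on low counts in at least 1 class, for 123 tests of a member in a class, 13 of them in fibroblasts and 10 in choroid plexus. For VEGFC against GFP, edgeR called 0 of the 123 at an adjusted p under 0.05, beside 0.0281% of all genes tested in all classes. For TBI right against sham right it called 0, beside 0.0782% of all genes, and for TBI left against TBI right 0, beside 0.0342%. At an unadjusted p under 0.05 there were 13, 16 and 10 of 123 tests. DESeq2 and limma-voom also called 0, with 3, 5 and 2 tests at that level for DESeq2 and 15, 19 and 12 for limma-voom. The member tests share genes and libraries and are not independent. Their counts at that level stand without the share of all genes and are not read as an excess. The median log2 change of the member tests was -0.01, 0.09 and -0.01, and that of all genes -0.00, -0.00 and 0.00. Both TBI comparisons share the TBI right libraries. In fibroblasts and choroid plexus the spread that edgeR borrows from other genes had infinite prior weight, so a p-value there hardly reflects the agreement between libraries.

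In fibroblasts, Col23a1 had the smallest p of any comparison. It was at 362 CPM (57 UMIs) in sham GFP right, 297 (32) in sham VEGFC right, 372 (57) in TBI GFP right, 253 (25) in TBI VEGFC right, 900.1 (42) in TBI GFP left and 393 (18) in TBI VEGFC left. Both left libraries were above both TBI right libraries and the TBI GFP left library, with 32 nuclei, stood far above the rest. In each left library 0 fibroblast nuclei had a deposited doublet score of at most 0.05. The log2 change from TBI right to left was 1.00 (SE 0.32, edgeR adjusted p = 0.242), which did not pass. Against the vector, Col23a1 changed by -0.63 (SE 0.25, edgeR adjusted p = 0.997) and Col5a2 by 0.89 (SE 0.35, edgeR adjusted p = 0.997), each in the same direction in all 3 pairs of libraries. Col5a2 was at 108, 131 and 85.7 CPM with GFP and at 223, 233 and 131 CPM with VEGFC, on 4 to 24 UMIs per library. The lowest VEGFC library lay next to the highest GFP library. Col4a1 had a vector change of -1.07 (SE 0.56) on 48 UMIs in all. For TBI right against sham right the 3 smallest p-values were those of Col5a1, at 1.05 (SE 0.59), Col1a2, at -0.50 (SE 0.30), and Col4a1, at 0.80 (SE 0.63), with edgeR adjusted p = 0.993 for each. From TBI right to left Col4a5 had 0.62 (SE 0.31, adjusted p = 0.837) and Col1a1 0.85 (SE 0.46, adjusted p = 0.846).

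In choroid plexus, Col4a4 was at 266 CPM in sham GFP right and 243 in sham VEGFC right, at 341 in TBI GFP right and 372 in TBI VEGFC right, and at 328 in TBI GFP left and 421 in TBI VEGFC left. All 4 TBI libraries lay above both sham libraries. The change from sham right to TBI right was 0.50 on the log2 scale (SE 0.15, edgeR adjusted p = 0.313), which did not pass. Col8a1 and Col27a1, a fibrillar collagen, had the same direction, with 0.24 (SE 0.12) and 0.43 (SE 0.22), both at an adjusted p of 0.897. The 10 members tested in choroid plexus had a median change of 0.27 from sham right to TBI right, where all genes had 0.00. These 10 tests share the same libraries and none was called, so the median is not read as a common rise. For the vector, Col18a1, whose end fragment is endostatin, changed by 0.52 (SE 0.23, edgeR adjusted p = 0.924). Its VEGFC libraries, at 69.5, 73.4 and 65.5 CPM, lay above its GFP libraries, at 44.02, 47.4 and 56.0 CPM. Col18a1 overlaps Slc19a1 on the other strand. Col4a3 had 0.22 (SE 0.13) and Col27a1 0.29 (SE 0.18), both not past the threshold (adjusted p = 0.979). From TBI right to left Col5a2 had -1.82 (SE 0.66) on low levels of 6.22 to 27.1 CPM, Col8a1 -0.13 (SE 0.12) and Col4a5 0.15 (SE 0.18), each at an adjusted p of 0.999.

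In the broad neuron classes the members with the smallest p also did not pass. Col6a3 in inhibitory neurons was at 55.9, 58.9 and 39.4 CPM with GFP (sham right, TBI right, TBI left) and at 44.1, 36.8 and 24.2 CPM with VEGFC, a change of -0.55 (SE 0.12, edgeR adjusted p = 0.981). The VEGFC library was lower in each of the 3 contexts, and the groups overlapped. Cluster I2, which held 792 of the 856 inhibitory Col6a3 UMIs, made up 26.0%, 30.7% and 17.4% of inhibitory nuclei with GFP and 34.3%, 16.4% and 11.2% with VEGFC. Within I2 the Col6a3 change was -0.21 (SE 0.16). The fall of Col6a3 from TBI right to left in the class, of -0.57 (SE 0.15), was 0.00 (SE 0.20) within I2, and for Col23a1 the values were -0.54 (SE 0.16) and -0.00 (SE 0.23). Col5a2 in inhibitory neurons had 0.79 (SE 0.19) for TBI right against sham right and 0.47 (SE 0.15) for the vector, Col19a1 0.49 (SE 0.16) for injury, and Col9a3 -0.48 (SE 0.21) for the vector. Col6a1 there had -1.08 (SE 0.35) for injury and 1.10 (SE 0.36) from right to left, with TBI GFP left highest at 29.4 CPM and TBI GFP right lowest at 9.67 CPM. Cluster I5, where Col6a1 was at 99.7 CPM, made up 20.9% of inhibitory nuclei in TBI GFP left and 2.55% in TBI GFP right. Cluster I7, where it was at 162 CPM, made up 11.6% and 3.45% in the same libraries. The part of the mix of clusters in the class values of Col6a3, Col23a1 and Col6a1 was not tested.

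Excitatory neurons gave Col11a1 as the member with the smallest p in all 3 comparisons: 0.34 (SE 0.09) for the vector, 0.37 (SE 0.11) for injury on the right and -0.41 (SE 0.11) from right to left (edgeR adjusted p = 0.642, 0.973 and 1.00). The TBI VEGFC right library stood apart at 187 CPM, and the other 5 lay between 107 and 133 CPM. Col5a1 (-0.60, SE 0.17) and Col12a1 (-0.59, SE 0.19) were next for the vector, Col4a2 (0.27, SE 0.10) and Col18a1 (-0.96, SE 0.36) for injury, and Col4a2 (-0.19, SE 0.10) and Col6a5 (0.68, SE 0.37) for side. In mixed neurons the leading members were Col25a1 (0.34, SE 0.17), Col8a1 (0.79, SE 0.40) and Col23a1 (0.97, SE 0.52) for the vector, Col8a1 (-1.31, SE 0.53), Col4a2 (-0.50, SE 0.38) and Col19a1 (0.42, SE 0.50) for injury, and Col25a1 (-0.36, SE 0.21), Col4a2 (0.51, SE 0.35) and Col4a1 (-0.48, SE 0.39) for side. None of these passed.

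Among the 15 neuron clusters with at least 20 nuclei in every library, 23 members could be tested, for 100 tests in each comparison. The vector comparison called 1 member (0.0224% of all genes tested in these clusters were called), TBI right against sham right called 1 (0.0471% of all genes), and TBI left against right called 1 (0.0479% of all genes). Tests with an unadjusted p under 0.05 numbered 19, 19 and 17 of 100, beside 5.35%, 4.94% and 3.96% of all genes. The member tests share genes and clusters and are not independent.

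Col11a1 rose in E1 after TBI on the right. The gene lies on the plus strand of chromosome 3, at 114030540 to 114220718 (GRCm38). It was at 241 CPM in both sham libraries (570 UMIs with GFP and 677 with VEGFC), at 286 (746 UMIs) in TBI GFP right and 385 (978) in TBI VEGFC right, and at 268 (639) in TBI GFP left and 328 (752) in TBI VEGFC left. Each TBI library was above both sham libraries. The change on the right was 0.49 (SE 0.11, edgeR adjusted p = 0.0356), and it did not pass with DESeq2 or with library totals, nor without sham VEGFC right, TBI GFP right or TBI VEGFC right, where it was 0.28, 0.62 and 0.35. In the authors' second clustering of neurons, 98.9% of E1 nuclei fell into 1 group, and within that group the levels were 245, 241, 290, 388, 274 and 334 CPM in the same order of libraries.

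Col5a2 was lower with VEGFC in E9. It was at 104 CPM (14 UMIs) in sham GFP right and 71.1 (17) in sham VEGFC right, at 212 (34) in TBI GFP right and 12.1 (2) in TBI VEGFC right, and at 162 (60) in TBI GFP left and 51.4 (18) in TBI VEGFC left. The GFP libraries did not overlap with the VEGFC libraries. The change was -1.70 (SE 0.33, edgeR adjusted p = 0.0415), and it was lost with DESeq2, limma-voom, without the context term, with both TBI sides taken as replicates, and without TBI GFP right or TBI VEGFC right, where it was -1.22 in each case. E9 holds mainly groups 13 and 14 of the second clustering. Within group 14 Col5a2 was at 60.1 CPM with GFP and 92.0 with VEGFC after sham, at 234 and 21.4 in TBI right, and at 277 and 123 in TBI left, so VEGFC was higher after sham and lower after TBI. Within group 13 it was at 269 and 17.7, 108 and 0, and 81.2 and 43.5 CPM in the same order, on 0 to 15 UMIs. The part of the mix of groups in the E9 value was not tested. In the fibroblast class, for which it did not pass, the vector change of Col5a2 was in the opposite direction.

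Col23a1 was lower on the left than on the right after TBI in E9. It was at 175 CPM (28 UMIs) in TBI GFP right and 176 (29) in TBI VEGFC right, at 83.8 (31) in TBI GFP left and 25.7 (9) in TBI VEGFC left, and at 186 (25) and 192 (46) in the sham libraries. Both left libraries were below all 4 right libraries. The change was -1.67 (SE 0.35, edgeR adjusted p = 0.0148), and it was lost with DESeq2 and without TBI GFP right, TBI VEGFC right or TBI VEGFC left, where it was -1.998, -1.40 and -1.02. Without TBI GFP left it was -2.74 and passed. Group 14 made up 62.5%, 62.8%, 73.9% and 55.3% of its nuclei in the right libraries (sham GFP, sham VEGFC, TBI GFP, TBI VEGFC) but 33.9% and 10.2% in TBI GFP left and TBI VEGFC left. Within group 14 Col23a1 was at 250, 264, 204 and 311 CPM in these right libraries and at 173 and 102 CPM, on 28 and 5 UMIs, in the left ones, which were again the lowest of the 6. Within group 13 it was at 0 to 35.8 CPM. The part of group 14 in the Col23a1 change was not tested. Of 4718 genes tested in E9, 58 were called for side, of 60 such calls over all neuron clusters.

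**Figure D5:**
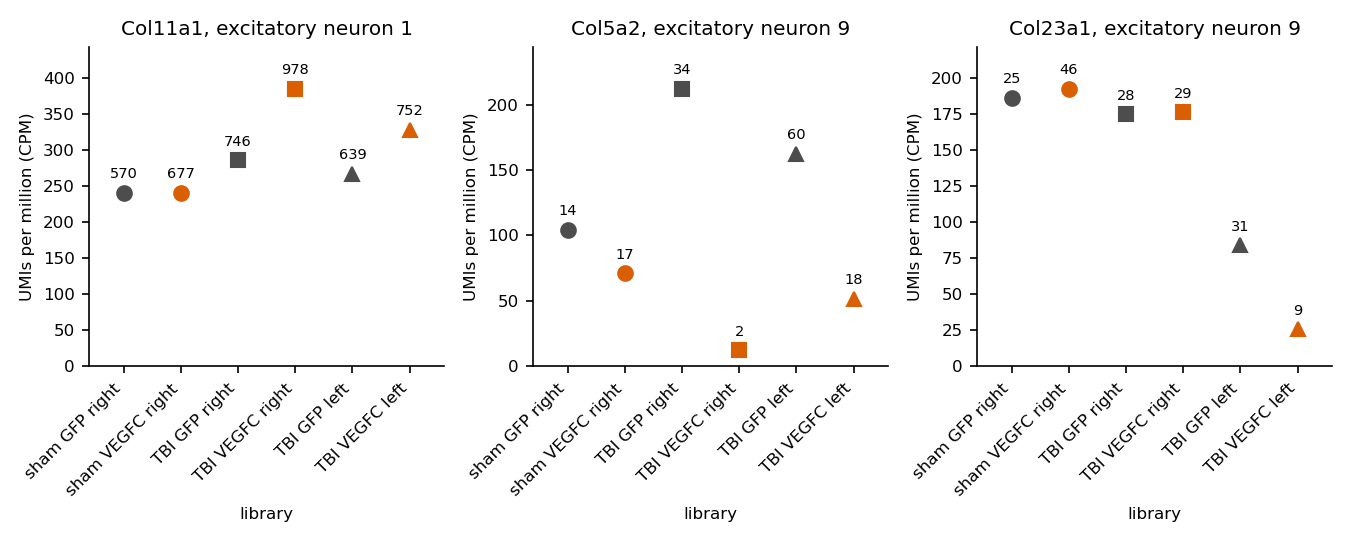
CPM per library of the 3 collagen genes called in a neuron cluster, with the UMI count above each point (grey GFP, orange VEGFC; circles sham right, squares TBI right, triangles TBI left). Col11a1 in E1 is lowest in both sham libraries, Col5a2 in E9 is lower with VEGFC within each context, and Col23a1 in E9 is low in both left libraries.

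Whether the vector effect differed between TBI and sham was tested after the data had been seen, with the left and right TBI libraries taken as replicates and 1 library for each sham arm. Here edgeR called 2 of 146 member tests in classes, beside 0.222% of all genes, and 8 of 118 in neuron clusters, beside 0.292%. Each rests on a single pair of sham libraries, and both TBI sides may come from the same animals, so a difference in vector effect cannot be told apart from variation between single libraries. For the 3 calls in E5, those of Col6a1, Col11a1 and Col5a1, the spread borrowed from other genes again had infinite prior weight. Col6a1, a chain of type VI collagen, gave 4 of the 10. In E4 it was at 3.03 CPM (3 UMIs) in sham GFP right and 39.9 (63) in sham VEGFC right, and after TBI at 22.3 (29) and 34.6 (36) with GFP, and 13.05 (14) and 21.9 (21) with VEGFC, each right before left. The sham GFP library was the lowest of the 6, and VEGFC was above GFP after sham and below it after TBI on each side. The difference of the log2 folds was -4.30 (SE 0.68, edgeR adjusted p = 1.2e-05). In the excitatory class as a whole Col6a1 was at 14.2 and 31.1 CPM after sham and at 18.7, 21.8, 11.7 and 17.8 CPM after TBI, with a difference of -1.52 (SE 0.27, edgeR adjusted p = 0.0469). E11, the cluster with the highest Col6a1 level, made up 1.04% and 3.59% of excitatory nuclei in the sham libraries and 1.53%, 2.01%, 1.52% and 3.50% in the same order of TBI libraries. Its part in the result was not tested.

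For the 6 lists of other collagen-related genes, each comparison comprised 320 tests in classes and 370 in neuron clusters. In classes edgeR called 0 for the vector, injury on the right and side, beside 0.0281%, 0.0782% and 0.0342% of all genes. There 29, 23 and 14 tests had an unadjusted p under 0.05. In neuron clusters it called 0, 0 and 1, beside 0.0224%, 0.0471% and 0.0479% of all genes, with 35, 20 and 19 at that level. For clusters the shares of all genes at that level are those given above for the collagen genes. The tests of the lists share genes and units, are not independent and are not read as an excess. Tll1, a protease of the family that removes the ends of procollagen, fell from TBI right to left in E9 by 1.64 on the log2 scale (edgeR adjusted p = 0.0449), the cluster and comparison of the Col23a1 call.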

How the data were processed

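Nuclei of the hippocampus were profiled with the 10x 3′ kit, version 3.1, per the labels' protocols. The submitters' processing notes name Cell Ranger 7.0.1, Scanpy and mm10, and the sources used here do not say how strand was treated. The authors deposited UMI counts per gene and nucleus. Their deposited table of nuclei gives cell class, cluster, total counts, the percent of mitochondrial counts and a doublet score, and no doublet caller was run here. Matrix sums equalled the deposited totals in 93.6% of nuclei, with a largest difference of 9 UMIs.

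Counts were summed per library and class or neuron cluster, in units with at least 20 nuclei in every library, and tested with edgeR 4.0.16 (TMM, quasi-likelihood) in R 4.3.3, with context and vector as terms. The SE is the size of the log2 change divided by the root of F and includes spread borrowed from other genes. DESeq2 1.42.0, limma 3.58.1 (voom), other scalings, no filter, a doublet score of at most 0.05, other terms, means over nuclei and leaving out each library were alternatives. The test of the vector effect between TBI and sham was added after seeing the data. In simulated counts 100 genes were changed per fold, taken from those with a mean of at least 20 counts per library. The fit for the vector recovered 73% of 2-fold and 100% of 4-fold changes in fibroblasts (2565 genes tested). It recovered 91% and 99% in choroid plexus (8767 genes), and 94% and 100% in E1 (12226 genes). Among unchanged genes it called 3 in fibroblasts, 9 in choroid plexus and 5 in E1. The counts were drawn from the spread that edgeR had fitted, with no difference between contexts, and refitted with the same model. Spread between libraries beyond that fit is absent from them, so the shares may be too high for the real libraries. These shares do not cover members with fewer counts, such as Col4a1 in fibroblasts, with 48 UMIs over all libraries.

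The members and lists were chosen with earlier results of these data known. Named for levels were the 5 members with the highest median in each class among those with at least 20 UMIs, and members highest in a neuron cluster with at least 50 UMIs. Named for comparisons were all called members and the 3 with the smallest p in fibroblasts, choroid plexus and each broad neuron class. Other members and genes given with values were chosen after their values were seen. Intervals are exact, at 95%, and, like the limit of 3 counts for a count of 0, cover counting error only.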

Additional observations from a re-analysis of the deposited data

Results flagged for a closer look

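In 10 member tests the vector effect after TBI and after sham differed at an adjusted p under 0.05 in the edgeR interaction test, which has 1 library for each sham arm and takes both TBI sides as replicates. A difference in vector effect cannot be told apart from variation between single libraries here. Values are the log2 fold of VEGFC over GFP after TBI minus that after sham. For Col6a1 the difference was -4.30 in excitatory cluster E4, -5.26 in E5, -1.89 in E7 and -1.52 in all excitatory neurons. In E5 Col6a1 had 6 and 17 UMIs in the sham GFP and VEGFC libraries, 38 and 12 with GFP after TBI (right, left), and 0 and 1 with VEGFC. In E7 VEGFC was above GFP in TBI right (97.8 and 76.1 CPM) and after sham (105 and 41.3 CPM), and below it in TBI left (38.8 and 88.96 CPM). For Col11a1 the difference was 2.39 in E5, 0.88 in E4 and -2.05 in mixed neurons. Col5a1 in E5 had -1.91, Col4a1 in E7 had 1.91, and Col6a6 in inhibitory cluster I1 had -4.79, where 21.9% of its UMIs came from 1 nucleus.

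With DESeq2 the 5 of these that received an adjusted p did not pass: Col6a1 in E4 (0.934), E7 (1.00) and all excitatory neurons (0.249), Col11a1 in E4 (1.00) and Col6a6 in I1 (1.00). With limma-voom 5 did not pass: Col6a1 in E4 (adjusted p = 0.064) and in excitatory neurons (0.0534), Col5a1 in E5 (0.091), Col11a1 in E4 (0.0585) and Col6a6 in I1 (0.353). Col4a1 in E7 did not pass with library totals (adjusted p = 0.0684).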

How the results depend on the processing

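Without the filter on low counts, calls among members in classes numbered 3 for vector, 2 for injury right and 1 for side, and in neuron clusters 2 for vector and 2 for side, of 354 and 595 member tests. Over all genes the shares called were then 0.127%, 0.0918% and 0.0561% in classes and 0.0579% and 0.029% in clusters. In neuron clusters the vector comparison called 0 with DESeq2, limma-voom, a doublet score of at most 0.05, no context term, or TBI hemispheres as replicates. Injury right called 0 there with library totals and DESeq2, and side called 0 with DESeq2 and with the doublet limit. That limit left out units with under 20 nuclei in a library, fibroblasts and E9 among them, so neither was tested in it. Of the fibroblast nuclei, 10 met it in sham GFP right, 3 in sham VEGFC right, 34 in TBI GFP right and 11 in TBI VEGFC right. In TBI GFP left and TBI VEGFC left 0 met it. The fibroblast levels thus rest mostly on nuclei above that score, and those of the left libraries wholly. Leaving out each library in turn gave 0 to 3 calls for each comparison in classes, where 0.024% to 0.435% of all genes were called. In clusters it gave 0 to 9 for vector, 1 to 4 for injury right and 0 to 3 for side. The shares of all genes there were 0.0224% to 0.455%, 0.0373% to 0.249% and 0.0126% to 0.128%. The 9 vector calls came without sham GFP right (of 115 tests) or sham VEGFC right (of 113), where 0.436% and 0.455% of all genes were called. Changes that turned direction, none of them called, were Col4a1 for injury in fibroblasts, -0.31 (without TBI GFP right) to 1.25, and -0.13 without sham GFP right, and Col4a5 for side in choroid plexus, -0.033 (without TBI VEGFC left) to 0.34. In mixed neurons Col19a1 for injury ranged from -0.50 (without TBI VEGFC right) to 1.56, with -0.10 without sham VEGFC right, and Col4a1 for side from -0.90 to 0.43 (without TBI VEGFC right). The cause was not tested. No paired analysis was possible because no replicate number is shared between groups, and the context term already sets each VEGFC library against the GFP library of its context. With 1 library per combination and 2 residual degrees of freedom, and 27 to 102 fibroblast nuclei per library, the precision is limited, and changes under 2-fold were not simulated.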
